A study of Mus musculus with 18 samples.

Results

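The MAP kinase phosphatases measured here were Dusp1, Dusp2, Dusp4, Dusp5, Dusp6, Dusp7, Dusp8, Dusp10 and Dusp16. They were taken by gene name from the 18 libraries and made up 9 of the 20207 genes listed in each. All 9 had at least 1 read in every library, which was the requirement for testing, and were tested among the 12731 genes that met it. These enzymes remove phosphate from both the threonine and the tyrosine of the activation loop of a MAP kinase and so switch ERK, JNK or p38 off. Several of them are transcribed in response to the kinases they inactivate, which makes them negative-feedback genes and also readouts of growth factor and stress signalling in fibroblasts. The family is usually grouped into inducible nuclear enzymes (Dusp1, Dusp2, Dusp4 and Dusp5), cytoplasmic enzymes selective for ERK (Dusp6 and Dusp7) and enzymes selective for JNK and p38 (Dusp8, Dusp10 and Dusp16).

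The cells were NIH3T3, an immortalised mouse embryonic fibroblast line. By the study's text, they stably carried introduced DD-GFP, a destabilizing domain of FKBP fused to superfolder GFP, and had been sorted as a population with high fluorescence. The ligand S1, which keeps the domain folded, was present in every group including the control. The 6 groups of 3 libraries were an unstressed control at 0 min, heat stress (HS) for 45 or 135 min, and tunicamycin (Tun), which blocks N-linked glycosylation and thereby loads the endoplasmic reticulum with unfolded protein, for 45, 135 or 405 min. No unstressed library from a later time was analysed here, so that time in culture and stress cannot be told apart, and nothing states that the libraries of a group were separate cultures, so the p-values measure the spread between libraries, which may be technical.

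Between 33415592 and 66478268 reads per library lay on genes, and 3 reads corresponded to 0.0451 to 0.0898 per 1000000 of these reads. The CPM (counts per 1000000) given for genes were also scaled between libraries by TMM and so differ somewhat from this unscaled measure. Genes of each stress were checked against the labels. Hspa1b, an inducible HSP70, averaged 5.76 CPM in the control and 873 CPM at 135 min of HS, and Hspa5, the chaperone BiP, averaged 692 CPM in the control and 9011 CPM at 405 min of tunicamycin. All 9 fibroblast markers examined were present in every library, whereas the summed epithelial and endothelial markers did not exceed 1.11 and 0.569 CPM and the leukocyte markers, of which Ptprc was at or near 0 throughout, did not exceed 8.75 CPM. The libraries of a group were not equally alike. A single axis held 74.0% of the spread within groups, and genes with more GC in their transcript had higher weights on it (Spearman rho 0.70 across genes, a description). HS 45 min replicate 3 and HS 135 min replicates 1 and 2 lay farthest out on this axis, followed by Tun 135 min replicate 1. Dusp4, Dusp8, Dusp1 and Dusp5 were at the 92.1, 85.9, 83.2 and 82.1 percentiles of weight among tested genes. For HS and for 135 min of tunicamycin, values after an offset for GC content or without 1 of these libraries are given below where they moved a member across the threshold. In bulk RNA, fewer cells with a transcript and less of it per cell cannot be told apart.

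The genes lie on separate mouse chromosomes (mm9), and none overlaps another annotated gene. The nuclear enzymes are encoded at chr17:26642537-26645417 (Dusp1, minus strand), chr2:127161895-127164113 (Dusp2), chr8:35870664-35882948 (Dusp4) and chr19:53603808-53615812 (Dusp5). The ERK-selective cytoplasmic enzymes are at chr10:98725865-98730122 (Dusp6) and chr9:106270963-106278052 (Dusp7). The remaining enzymes are at chr7:149267401-149276175 (Dusp8, minus strand), chr1:185858340-185899515 (Dusp10) and chr6:134665491-134742646 (Dusp16, minus strand).

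In unstressed cells, 6 of the phosphatases were expressed at similar levels per transcript length and 3 were low. The RPKM (reads scaled to gene length and library size, as the authors computed it) averaged 31.2 ± 2.74 (SD, n = 3) for Dusp5. Dusp1 followed at 24.8 ± 2.81 RPKM, Dusp7 at 21.7 ± 3.36, Dusp10 at 20.4 ± 2.20 and Dusp4 at 19.6 ± 0.879, and each of these overlapped its neighbour in the order. Dusp6 averaged 16.1 ± 0.330 RPKM, below all libraries of Dusp4. Dusp16 at 2.37 ± 0.161 RPKM and Dusp8 at 1.48 ± 0.865 RPKM overlapped, and Dusp2, an enzyme known best from lymphocytes, was at 0.106 ± 0.00515 RPKM with 8 to 11 reads per control library. The place of Dusp5 rested on the length behind its RPKM. The deposited reads and RPKM implied 1413 bases for Dusp5 and 2998 for Dusp8, 0.57 and 0.62 times the longest GENCODE coding transcript of each, against 1.08 to 1.22 times for the other 7. Per kilobase of those transcripts, a comparison added after the values were seen, Dusp1 had the highest control mean at 28.3 ± 2.72 CPM per kilobase (SD, n = 3), and Dusp5 was the sixth at 17.1 ± 2.0, overlapping Dusp6 at 18.8 ± 0.342. Which length is right for Dusp5 was not tested. The order was not kept under stress. Dusp1 led at 45 min of HS with 62.6 ± 16.0 RPKM, Dusp4 had the highest mean at 135 min of HS with 31.8 ± 9.37 RPKM, and Dusp5 led at 135 min of tunicamycin with 64.4 ± 7.27 RPKM. The same genes had the highest means of these groups per kilobase of transcript, but at 135 min of tunicamycin Dusp5 (36.5 ± 6.80) then overlapped Dusp10 (36.2 ± 6.53).

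**Figure D1:**
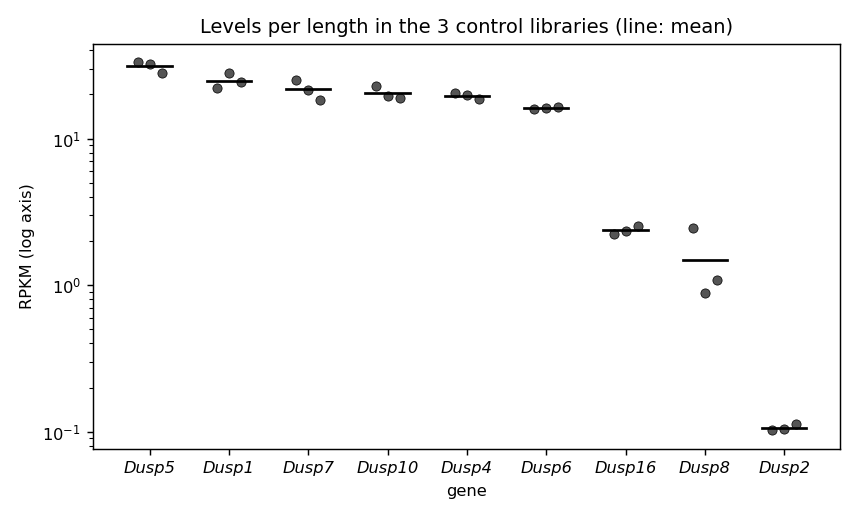
RPKM on a log axis of the 9 MAP kinase phosphatase genes in the 3 control libraries (points) with the group mean (line), ordered by mean. Dusp5 stands highest at 31.2 RPKM (the sixth per kilobase of the longest GENCODE transcript), 5 others follow down to 16.1 RPKM for Dusp6, and Dusp16, Dusp8 and Dusp2 lie between 2.37 and 0.106 RPKM.

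The sequences just upstream of 3 of the genes are shown because they hold the full CREB/ATF or serum response factor motifs found in this family. RefSeq windows of the 250 bases before the start site (GRCm38.p6, a later build than that of the gene coordinates above) were found for 8 of the 9 members, all but Dusp4. Dusp1 (chr17:26508473-26508722, minus strand), Dusp5 (chr19:53528895-53529144, plus strand) and Dusp8 (chr7:142095285-142095534, minus strand) read, 5′ to 3′ with motif matches in capitals:
Dusp1: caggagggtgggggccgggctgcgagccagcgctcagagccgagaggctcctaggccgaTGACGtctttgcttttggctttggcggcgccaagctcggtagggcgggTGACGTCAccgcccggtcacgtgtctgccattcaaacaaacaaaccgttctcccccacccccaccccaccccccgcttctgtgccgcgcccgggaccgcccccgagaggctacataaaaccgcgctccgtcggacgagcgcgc
Dusp5: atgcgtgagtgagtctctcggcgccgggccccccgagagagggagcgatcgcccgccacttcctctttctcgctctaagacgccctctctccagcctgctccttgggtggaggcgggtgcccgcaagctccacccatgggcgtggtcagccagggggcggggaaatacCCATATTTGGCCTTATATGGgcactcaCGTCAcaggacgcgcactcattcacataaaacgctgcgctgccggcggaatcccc
Dusp8: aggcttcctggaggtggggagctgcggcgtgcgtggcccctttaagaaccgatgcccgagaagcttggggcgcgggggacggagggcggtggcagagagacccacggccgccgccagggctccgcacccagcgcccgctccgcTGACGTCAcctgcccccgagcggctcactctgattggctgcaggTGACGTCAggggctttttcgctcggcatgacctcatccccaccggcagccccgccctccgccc

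The cAMP response element (CRE, TGACGTCA), the site of CREB and ATF proteins, stood once in the Dusp1 window (bases -143 to -136 from the start site) and at -107 to -100 and -63 to -56 in that of Dusp8, and 1.5% of 32851 mouse promoters of this length held it. The shorter core TGACG, which every CRE contains on both strands, occurred in addition at -191 to -187 in Dusp1, on the minus strand at -55 to -51 in Dusp5 and at -70 to -66 in Dusp16, and was in 17.8% of all promoters. Dusp5 held a pair of directly adjoining CArG boxes, the site of serum response factor, at -82 to -73 and -72 to -63, which fall into 1 run of capitals above. A CArG box was in 1.5% of all promoters and in no other member's window. Both strands were also searched for an inverted pair of heat shock element units (GAANNTTC, in 6.7% of all promoters), which was found in Dusp16 alone (-25 to -18), and for the C/EBP-ATF composite element (TGATGNAA, 3.5%) and the AP-1 site (TGANTCA, 6.7%), whose letters were in none of the 8 windows. A match describes the sequence and shows no binding.

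Dusp1, the prototype MAP kinase phosphatase and an immediate-early gene, had opposite values at 45 min of the 2 stresses. Its level was 52.9, 62.5 and 53.4 CPM in the control libraries, 214, 174 and 105 CPM at 45 min of HS, and 28.5, 27.4 and 28.9 CPM at 45 min of tunicamycin. All HS libraries lay above all control libraries, and all tunicamycin libraries below them. Against control, Dusp1 fell with tunicamycin by 0.98 on the log2 scale (SE 0.128, adjusted p = 0.00869, edgeR quasi-likelihood test with Benjamini-Hochberg adjustment), 1.97-fold. With HS its mean was 2.92-fold the control (log2 fold change 1.55, SE 0.288), but the edgeR adjusted p of 0.227 did not pass 0.05. The test of HS against tunicamycin at 45 min passed, with Dusp1 higher in HS by 2.54 on the log2 scale (SE 0.278, edgeR adjusted p = 0.0455), 5.80-fold. This call was lost when any one of HS replicates 1 and 2 or the 3 tunicamycin libraries was left out (edgeR adjusted p 0.167 to 0.393), with the log2 fold change still between 2.30 and 2.55. Each of those fits called 0 of the 12731 tested genes, and the fit of HS against tunicamycin with all libraries called 26. Without HS 45 min replicate 3, the library with the smallest Dusp1 value of its group, HS against control was called as well (log2 fold change 1.79, edgeR adjusted p = 0.000981). That fit called 5786 of the 12731 tested genes, where the fit of all libraries called 0.

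Later levels of Dusp1 differed from these. At 135 min of HS the libraries were at 37.5, 69.4 and 52.0 CPM and at 135 min of tunicamycin at 67.9, 46.5 and 54.2 CPM, and both groups overlapped the control. From 45 to 135 min of HS the log2 fold change was -1.69 (SE 0.341, edgeR adjusted p = 0.174), and the groups did not overlap. With the GC offset it was -1.60 (edgeR adjusted p = 0.0466). From 45 to 135 min of tunicamycin Dusp1 was 1.99-fold higher without overlap (log2 fold change 0.99, SE 0.161), with an edgeR adjusted p of 0.0765, and it was called with the GC offset (0.90, edgeR adjusted p = 0.0204) and without Tun 135 min replicate 1 (0.86, edgeR adjusted p = 0.0236). At 405 min of tunicamycin Dusp1 was at 21.0, 22.2 and 22.3 CPM, below every other library in the series. This was a fall by 1.35 on the log2 scale from control (SE 0.125, edgeR adjusted p = 0.000119) and by 1.39 from 135 min of tunicamycin (SE 0.168, edgeR adjusted p = 0.000646). Both held in all 9 other settings and without any 1 library.

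Dusp5, a nuclear phosphatase specific for ERK, had its highest levels at 135 min of tunicamycin. It was at 46.6, 43.5 and 36.9 CPM in the control, at 30.6, 29.5 and 33.2 CPM at 45 min of tunicamycin, at 110, 82.8 and 78.7 CPM at 135 min and at 17.8, 18.5 and 18.3 CPM at 405 min. None of these 4 groups overlapped another. Dusp5 rose from 45 to 135 min by 1.54 on the log2 scale (SE 0.158, edgeR adjusted p = 0.0235), 2.91-fold, and then fell by 2.33 to 405 min (SE 0.165, edgeR adjusted p = 7.61e-05), 5.04-fold, the largest called change of a member between time points or against control. Against control, the 405 min level fell by 1.20 (SE 0.134, edgeR adjusted p = 0.000288), while the 135 min level, 2.15-fold the control (log2 fold change 1.11, SE 0.190), had an edgeR adjusted p of 0.0802. With the GC offset the latter was 0.95 (edgeR adjusted p = 0.0268). With the replicate block as well it was 0.95 without a call (edgeR adjusted p = 0.0890). This was the 1 comparison where replicate numbers were taken to pair the libraries, from correlations alone. The call from 45 to 135 min was lost on leaving out any library but Tun 135 min replicate 1 (edgeR adjusted p 0.0886 to 0.368, log2 fold change 1.50 to 1.63). Those fits called 0 or 1 of all genes tested, against 37 with all libraries.

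Under HS, Dusp5 was at 66.4, 60.7 and 43.5 CPM at 45 min and at 18.7, 39.8 and 32.1 CPM at 135 min, and each group overlapped the control. The overlap at 135 min depended on the scaling. In the authors' RPKM, all libraries of that group (13.7 to 23.2) lay below all control libraries (28.1 to 33.1), and those of 45 min still overlapped them. The log2 fold changes against control were 0.43 (SE 0.234, edgeR adjusted p = 0.299) and -0.49 (SE 0.297, edgeR adjusted p = 0.299). After the GC offset they were 0.09 (edgeR adjusted p = 0.711) and -0.76 (edgeR adjusted p = 0.0298), so that the call at 135 min depended on this choice. Without HS 45 min replicate 3, the value at 45 min was 0.59 and was called (edgeR adjusted p = 0.0297). At 135 min the HS libraries lay below all tunicamycin libraries (log2 fold change of HS over tunicamycin -1.61, SE 0.307, edgeR adjusted p = 0.0516). This was called with the GC offset (-1.71, edgeR adjusted p = 0.00509) and without HS 135 min replicate 1 (-1.36, edgeR adjusted p = 0.0459).

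Dusp4, a nuclear phosphatase of ERK and JNK, was scattered widely within the HS groups. It was at 60.1, 55.6 and 51.4 CPM in the control, 79.4, 91.8 and 46.5 CPM at 45 min of HS and 60.6, 138 and 119 CPM at 135 min of HS, where the lowest library was just above the highest control. Replicate 1, the lowest, and replicate 2, the highest, were the libraries at opposite ends of the GC-related axis. At 45 min of HS the log2 fold change was 0.38 (SE 0.278, edgeR adjusted p = 0.391), 0.08 with the GC offset (edgeR adjusted p = 0.774) and 0.62 without replicate 3 (edgeR adjusted p = 0.0201). The log2 fold change at 135 min of HS was 0.93 (SE 0.307, edgeR adjusted p = 0.0976), 0.70 with the GC offset (edgeR adjusted p = 0.0544) and 1.20 without replicate 1 (edgeR adjusted p = 0.0133). Tunicamycin gave 48.4, 55.5 and 64.8 CPM at 45 min, 113, 78.4 and 60.1 CPM at 135 min and 40.7, 37.2 and 32.2 CPM at 405 min. Only the last group lay wholly below the control. Dusp4 fell by 0.58 on the log2 scale against control at 405 min (SE 0.135, edgeR adjusted p = 0.00870), a call lost without Tun 405 min replicate 3 (log2 fold change -0.50, edgeR adjusted p = 0.0503) and in the fit of all 6 groups (-0.60, edgeR adjusted p = 0.140), and by 1.21 from 135 to 405 min (SE 0.234, edgeR adjusted p = 0.00485).

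Dusp2, the remaining nuclear member, stayed near the limit of counting, with 3 to 27 reads per library. Its level was 0.201, 0.196 and 0.206 CPM in the control and 0.363, 0.476 and 0.306 CPM at 405 min of tunicamycin, without overlap, and 0.0635 to 0.266 CPM in the other groups. Dusp2 was the only member called higher at 405 min (log2 fold change 0.94, SE 0.296, edgeR adjusted p = 0.0304). The DESeq2 Wald test gave an adjusted p of 0.104, the replicate block an edgeR adjusted p of 0.0619 and the block with the GC offset 0.0695 (log2 fold change 0.82). Leaving out any one of 4 libraries (control replicates 2 and 3, Tun 405 min replicates 1 and 2) lost the call (edgeR adjusted p 0.0595 to 0.121, log2 fold change 0.75 to 0.95). Counting error alone is large at such numbers of reads.

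**Figure D2:**
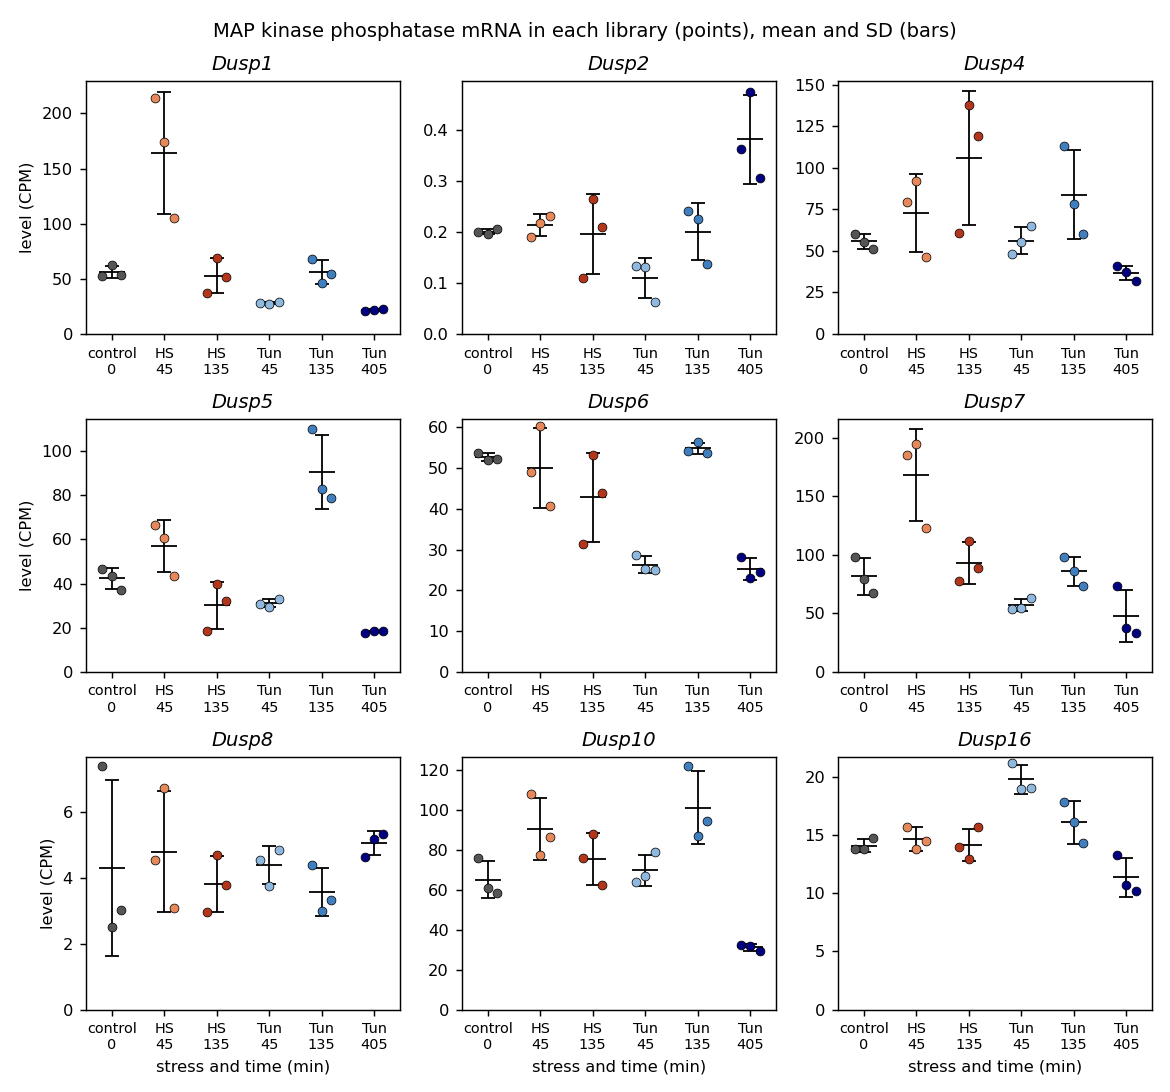
Level in CPM of each of the 9 genes in all 18 libraries (points), with the mean and SD of each group of 3 (bars), by stress and time in min. Axes start at 0 and differ between genes. Dusp1 and Dusp7 peak at 45 min of HS (means 164 and 168 CPM), Dusp5 at 135 min of tunicamycin (mean 90.4 CPM), and 7 genes, all but Dusp2 and Dusp8, have their lowest means at 405 min of tunicamycin.

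Dusp6, the cytoplasmic ERK phosphatase whose transcript is widely used as a readout of ERK activity, moved with the time of tunicamycin and was not called in HS against control. It was at 53.8, 52.0 and 52.3 CPM in the control, 28.7, 25.3 and 24.9 CPM at 45 min of tunicamycin, 54.2, 56.4 and 53.7 CPM at 135 min and 28.2, 23.1 and 24.4 CPM at 405 min. The libraries of 45 and 405 min lay far below the others and overlapped each other, and those of 135 min overlapped the control. Dusp6 fell against control by 0.99 on the log2 scale at 45 min (SE 0.128, edgeR adjusted p = 0.00869), rose by 1.06 from 45 to 135 min (SE 0.128, edgeR adjusted p = 0.0431) and fell again by 1.14 to 405 min (SE 0.133, edgeR adjusted p = 0.000546). At 405 min it was 2.06-fold below control (log2 fold change -1.04, SE 0.125, edgeR adjusted p = 0.000398). At 135 min of tunicamycin the log2 fold change against control was 0.07 (SE 0.152, edgeR adjusted p = 0.830). In HS, Dusp6 was at 49.0, 60.2 and 40.7 CPM at 45 min and at 31.4, 53.1 and 43.8 CPM at 135 min. Both groups overlapped the control, and the log2 fold changes were -0.08 (SE 0.214, edgeR adjusted p = 0.827) and -0.30 (SE 0.237, edgeR adjusted p = 0.415). The overlap depended on the scaling. In the authors' RPKM, all HS libraries (9.48 to 14.8) lay below all control libraries (15.8 to 16.4). Dusp6 was called in 0 of 9 other settings at either time.

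The early falls of Dusp1 and Dusp6 shared their limits. Both were called at 45 min of tunicamycin in 8 of 9 other settings, and both lost the call when control replicate 2, control replicate 3 or Tun 45 min replicate 2 was left out (edgeR adjusted p 0.0507 to 0.0863, log2 fold changes -0.90 to -1.02). Over all genes tested, those fits called 102, 96 and 58 in this order, against 786 with all libraries. The rise of Dusp6 from 45 to 135 min was called only without Tun 135 min replicate 1 among the 6 fits with 1 library left out (edgeR adjusted p 0.167 to 0.391 in the other 5). These other 5 fits called 0 or 1 of all genes tested.

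Dusp7, the other cytoplasmic ERK phosphatase, resembled Dusp1 in HS. Its level was 98.5, 79.5 and 67.4 CPM in the control, 185, 195 and 123 CPM at 45 min of HS and 77.6, 112 and 88.9 CPM at 135 min. All 45 min libraries were above all others of these 3 groups. The mean at 45 min was 2.05-fold the control (log2 fold change 1.04, SE 0.258), with an edgeR adjusted p of 0.227. It was 0.63 with the GC offset (edgeR adjusted p = 0.138) and 1.22 without HS 45 min replicate 3 (edgeR adjusted p = 0.00353). With tunicamycin, Dusp7 was at 54.0, 54.6 and 63.4 CPM at 45 min, 98.2, 86.0 and 73.5 CPM at 135 min and 73.0, 37.5 and 32.9 CPM at 405 min. The 405 min libraries were spread more widely than those of the other members, and replicate 1 alone overlapped the control. Against control at 405 min the log2 fold change was -0.76 (SE 0.297, edgeR adjusted p = 0.0667) and, without replicate 1, -1.22 (edgeR adjusted p = 0.00517), and it was also called by the DESeq2 Wald test (adjusted p = 0.0307), in the fit of all 6 groups (edgeR adjusted p = 0.0403) and with the replicate block (edgeR adjusted p = 0.0127). The fall by 0.87 from 135 to 405 min (SE 0.297, edgeR adjusted p = 0.0462) was kept in 2 of the 6 fits with 1 library left out and had an edgeR adjusted p of 0.063 to 0.150 in the other 4.

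Dusp10, a phosphatase of JNK and p38, was spread less between the first 5 groups than Dusp1, Dusp5 or Dusp7 and was low at 405 min of tunicamycin. It was at 75.9, 60.7 and 58.6 CPM in the control, 108, 77.4 and 86.6 CPM at 45 min of HS and 76.1, 88.1 and 62.3 CPM at 135 min of HS. Tunicamycin gave 64.1, 66.7 and 78.7 CPM at 45 min, 122, 87.1 and 94.3 CPM at 135 min and 32.4, 31.7 and 29.2 CPM at 405 min. The 405 min libraries lay below all 15 others, and those of 45 min of HS and 135 min of tunicamycin above all control libraries. In the authors' RPKM, the libraries of 45 min of HS (19.6 to 28.4) overlapped the control (19.0 to 22.9). Dusp10 fell by 1.04 on the log2 scale against control at 405 min (SE 0.143, edgeR adjusted p = 0.000732), 2.06-fold, and by 1.72 from 135 min (SE 0.161, edgeR adjusted p = 0.000216), 3.29-fold. At 135 min of tunicamycin it was 1.57-fold the control (log2 fold change 0.65, SE 0.191, edgeR adjusted p = 0.159), and at 45 min of HS 1.39-fold (log2 fold change 0.48, SE 0.219, edgeR adjusted p = 0.265).

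Dusp16, which also acts on JNK and p38, had its highest mean at 45 min of tunicamycin, where Dusp1, Dusp5, Dusp6 and Dusp7 were below control. It was at 13.8, 13.8 and 14.8 CPM in the control and 21.2, 19.0 and 19.1 CPM at 45 min of tunicamycin, without overlap. The log2 fold change was 0.50 (SE 0.136, edgeR adjusted p = 0.0698), and it passed the threshold with library totals in place of TMM scaling (0.61, edgeR adjusted p = 0.0414), with the GC offset (0.50, edgeR adjusted p = 0.0273) and by the DESeq2 Wald test (0.48, adjusted p = 0.0101). Later it was at 17.9, 16.1 and 14.3 CPM at 135 min and 13.3, 10.7 and 10.2 CPM at 405 min. From 135 to 405 min Dusp16 fell by 0.52 (SE 0.169, edgeR adjusted p = 0.0390), a call kept in 3 of the 6 fits with 1 library left out and in 7 of the 9 other settings. In HS it ranged from 13.0 to 15.7 CPM, with log2 fold changes of 0.05 (SE 0.215, edgeR adjusted p = 0.880) at 45 min and 0.01 (SE 0.216, edgeR adjusted p = 0.978) at 135 min.

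Dusp8, the third phosphatase of JNK and p38, did not pass the threshold in any of the 10 comparisons. Its control libraries were at 7.41, 2.52 and 3.02 CPM, a wider range than in any stressed group, and the other 15 libraries lay between 2.97 and 6.75 CPM. The log2 fold changes against control ran from -0.25 to 0.26, with SE of 0.378 to 0.494, so a change of this size was not detectable. Without control replicate 1, Dusp8 was called higher at 45 min (log2 fold change 0.68, edgeR adjusted p = 0.0430) and 405 min of tunicamycin (0.90, edgeR adjusted p = 0.000671). These fits called 2499 and 7897 of the 12731 tested genes.

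**Figure D3:**
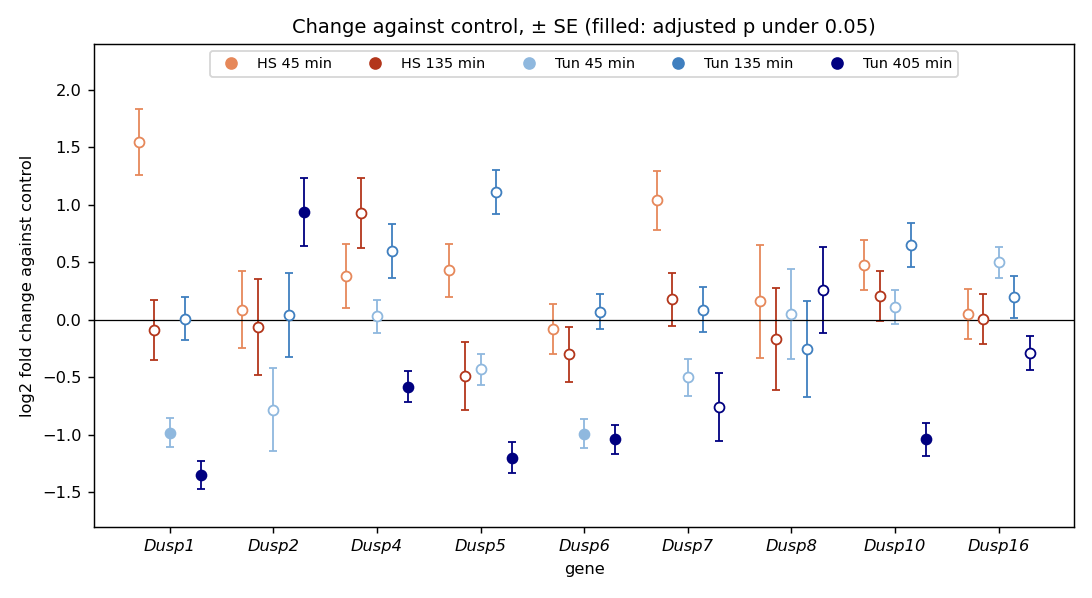
Log2 fold change against control with its SE from the edgeR fit (n = 3 against 3) for the 9 genes in the 5 stressed groups, filled where the adjusted p was under 0.05. Filled points lie at 45 min of tunicamycin for Dusp1 and Dusp6 (-0.98 and -0.99) and at 405 min for 6 genes, 5 of them below 0, and all HS points are open.

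Counted together, the members were read against all genes tested. At 45 min of HS, edgeR called none of the 9, and none of the 12731 genes (0%). At an unadjusted p under 0.05 there were 2 members (Dusp1 and Dusp7) and 19.5% of all genes, and the DESeq2 Wald test called these 2 members among 451 genes. In 3 members (Dusp1, Dusp7 and Dusp10) all HS libraries were above all control libraries in CPM, as in 12.5% of all genes. In the authors' RPKM this was not so for Dusp10. With HS 45 min replicate 3 left out, 4 members (Dusp1, Dusp4, Dusp5 and Dusp7) were called, among 5786 genes. No member was called at 135 min of HS, against 7.39% of all genes. Dusp4 alone had an unadjusted p under 0.05, against 29.7% of genes, and the Wald test also called none. With HS 135 min replicate 1 left out, Dusp4 was called, among 2467 genes. At 45 min of tunicamycin the 2 calls, both lower, stood against 6.17% of genes called and 2.17% called lower. All tunicamycin libraries lay below all control libraries in 5 members (Dusp1, Dusp2, Dusp5, Dusp6 and Dusp7), as in 16.0% of genes, and above them in Dusp16, as in 17.2%. At 135 min none was called by edgeR, against 0.134% of genes (17 genes, and 0 with the replicate block), 3 (Dusp4, Dusp5 and Dusp10) had an unadjusted p under 0.05, against 18.6%, and the Wald test called Dusp5.

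At 405 min of tunicamycin, 6 of 9 members were called in a comparison in which 46.8% of all genes were. The 5 that fell (Dusp1, Dusp4, Dusp5, Dusp6 and Dusp10) stood against 23.5% of genes called lower, and Dusp2 against 23.3% called higher. The median log2 fold change of the members was -0.76, beside -0.01 for all tested genes. It was 0.38 beside -0.03 at 45 min of HS, -0.06 beside -0.02 at 135 min of HS, -0.43 beside -0.00 at 45 min of tunicamycin and 0.09 beside -0.00 at 135 min of tunicamycin. All 5 comparisons share the 3 control libraries.

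Between stresses, Dusp1 at 45 min was the single call of HS against tunicamycin (0.204% of genes called, 0.0628% called higher). At 135 min none of the 9 was called, against 2.12% of genes, with 1 (Dusp5) at an unadjusted p under 0.05, against 20.0%, and Dusp5 was called there by the DESeq2 Wald test (log2 fold change -1.60, adjusted p = 0.000276). Between 45 and 135 min of HS no member and no gene (0%) was called, and 3 members (Dusp1, Dusp5 and Dusp7) had an unadjusted p under 0.05, all lower at 135 min, against 11.6% of genes. The Wald test called Dusp1 there (log2 fold change -1.67, adjusted p = 0.00236). Between 45 and 135 min of tunicamycin, 2 members (Dusp5 and Dusp6) were called, both higher, against 0.291% of genes called and 0.118% called higher. Between 135 and 405 min, 7 of 9 fell, all but Dusp2 and Dusp8, against 43.7% of genes called and 22.4% called lower. Beside this fall, 7 of 9 fibroblast markers were also called lower at 405 min against 135 min and against control, and their summed level was 21007 to 22937 CPM at 405 min, 36978 to 48494 CPM at 135 min and 29789 to 39116 CPM in the control. The part of this loss in the members' fall was not tested.

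The GC offset changed the HS values of several members. At 45 min of HS it lowered the log2 fold changes of the 6 members with transcript GC of 54.9% or more, as from 1.55 to 1.33 for Dusp1 and from 1.04 to 0.63 for Dusp7, and raised those of the 3 with 49.0% or less, as from 0.48 to 0.69 for Dusp10. The values of Dusp2 (0.09 to -0.35), Dusp6 (-0.08 to 0.13) and Dusp8 (0.16 to -0.30) changed sign without being called in either fit. Between stresses at 45 min, Dusp7 was called higher in HS with the offset (log2 fold change 1.16, edgeR adjusted p = 0.00991) and not without it (1.55, edgeR adjusted p = 0.0631). Without HS 45 min replicate 3, Dusp4, Dusp5, Dusp6 and Dusp7 were called there beside Dusp1, at log2 fold changes of 0.61 to 1.73. That fit called 7087 of the 12731 tested genes, the fit with the offset 451 and the fit of all libraries 26. From 135 to 405 min of tunicamycin, the offset lost the call of Dusp7 (-0.77, edgeR adjusted p = 0.0708) and gave calls of Dusp2 (0.97, edgeR adjusted p = 0.0286) and Dusp8 (0.58, edgeR adjusted p = 0.00862), which were also called without Tun 135 min replicate 1 (edgeR adjusted p = 0.0432 and 0.00394). Here 6660 genes were called with the offset and 8126 without that replicate, against 5566 as fitted.

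**Figure D4:**
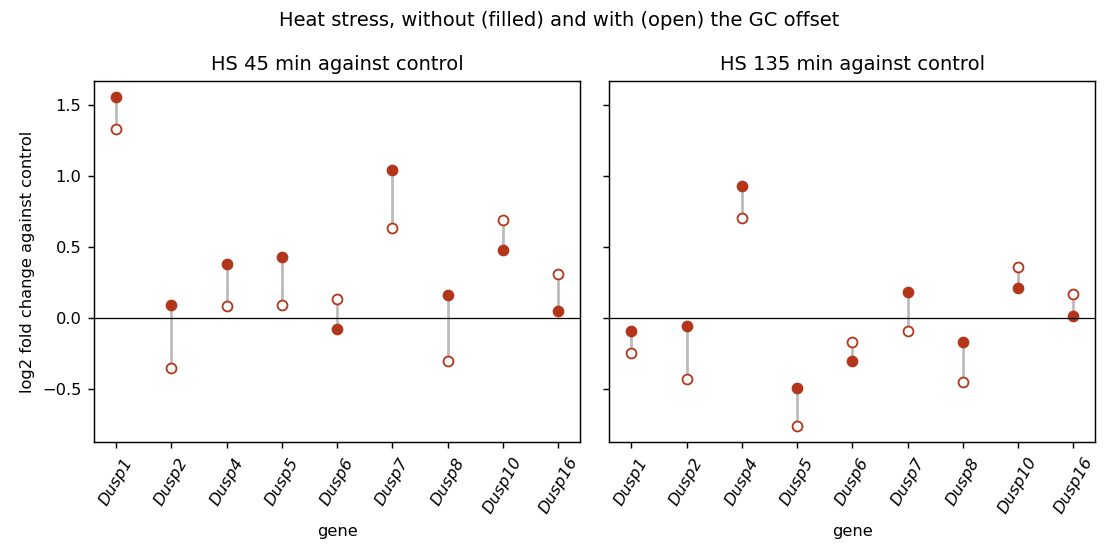
Log2 fold change of the 9 genes against control at 45 min (left) and 135 min (right) of HS, as fitted (filled) and after an offset for transcript GC content (open). The value of Dusp1 at 45 min moves from 1.55 to 1.33 and that of Dusp7 from 1.04 to 0.63, and Dusp2, Dusp6 and Dusp8 cross 0.

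Over the 18 libraries, the levels of Dusp1 and Dusp7 ran most closely together of all pairs of members (Pearson r = 0.91 on log2 CPM), followed by Dusp5 with Dusp6 and with Dusp10 (r = 0.81 each). These are descriptions over libraries that share groups and the GC-related axis. Among genes outside the family, those most like Dusp1, the member with the widest range of group means (2.82 on the log2 scale), were Klhl18 (r = 0.944), Phf13 (0.938) and Nuak2 (0.936). Those most like Dusp5 were the Notch target Hes1 (0.946), Vasn (0.944) and the immediate-early gene Egr3 (0.936), and those most like Dusp7 were Nuak2 (0.944), Gatad2a (0.936) and Fn3krp (0.921), over the same 18 libraries.

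The kinases that these enzymes act on, and the lists after them, were read against all genes tested. Of these, 0% and 7.39% were called at 45 and 135 min of HS. At 45, 135 and 405 min of tunicamycin 6.17%, 0.134% and 46.8% were. Among 9 MAP kinases tested, Mapk14, the p38 alpha kinase, fell from 133 ± 13.8 CPM in the control to 87.0 ± 6.53 CPM at 45 min of tunicamycin (log2 fold change -0.59, edgeR adjusted p = 0.0462) and to 56.8 ± 6.65 CPM at 405 min (-1.20, edgeR adjusted p = 0.000341). Mapk11, p38 beta, also fell at 405 min (-0.48, edgeR adjusted p = 0.0153), and the other 7 were not called in any comparison with control. Of 7 MAP kinase kinases, Map2k3, an activator of p38, fell at 45 min of tunicamycin (-0.50, edgeR adjusted p = 0.0468). At 405 min 3 rose and 3 fell, including Map2k1, the ERK kinase kinase MEK1 (0.94, edgeR adjusted p = 0.00147), Map2k3 (-1.12, edgeR adjusted p = 0.000135) and Map2k6 (-1.06, edgeR adjusted p = 0.000656). Of 14 MAP kinase kinase kinases, 1 rose at 135 min of HS (Map3k8, 1.41, edgeR adjusted p = 0.0365), and 2 rose and 7 fell at 405 min of tunicamycin.

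Downstream, 12 other ERK feedback regulators and ERK-responsive genes were tested. At 45 min of tunicamycin, when Dusp6 fell, 1 of the 12 was called, and it was higher: Etv5, an ERK-induced ETS factor, was at 61.4 ± 3.07 CPM in the control and 116 ± 13.2 CPM at 45 min (log2 fold change 0.93, edgeR adjusted p = 0.00960). At 405 min 7 fell and 1 rose, against 23.5% of all genes called lower and 23.3% called higher. The ETS factors Etv1 (-2.71, edgeR adjusted p = 1.9e-05) and Etv4 (-1.48, edgeR adjusted p = 7.05e-05) and the receptor signalling inhibitor Spry4 (-1.49, edgeR adjusted p = 0.000866) fell, and Ier3 rose (1.25, edgeR adjusted p = 0.00448). At 135 min of HS only Phlda1 rose, from 83.2 ± 7.67 to 929 ± 597 CPM (3.48, edgeR adjusted p = 0.0204). The median log2 fold change of these 12 genes was 0.26 at 45 min of HS, -0.09 at 135 min of HS, 0.16, 0.56 and -0.69 at 45, 135 and 405 min of tunicamycin.

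The kinases activated by MAP kinases and the atypical dual-specificity phosphatases, small relatives without the MAP kinase-binding domain, had calls in both directions. So did all genes tested at 405 min of tunicamycin, with 23.3% called higher and 23.5% lower. Of 9 kinases, 1 (Mknk1, which phosphorylates eIF4E) rose at 45 min of tunicamycin (log2 fold change 0.87, edgeR adjusted p = 0.0389), and 3 rose and 5 fell at 405 min, among them Mknk1 (2.37, edgeR adjusted p = 3.41e-05), Rps6ka2 (1.65, edgeR adjusted p = 7.68e-05) and Mknk2 (-1.56, edgeR adjusted p = 0.00104). At 135 min of HS, Rps6ka5 fell (-1.21, edgeR adjusted p = 0.0444). Of 8 atypical phosphatases, 3 rose and 2 fell at 405 min of tunicamycin, led by Dusp23, which went from 1.92 ± 0.865 to 17.7 ± 3.17 CPM (3.24, edgeR adjusted p = 0.000154). Dusp18 rose at 135 min of HS (1.46, edgeR adjusted p = 0.0416) and fell at 405 min of tunicamycin (-1.69, edgeR adjusted p = 0.00145). No gene of these 6 lists was called by edgeR at 45 min of HS or at 135 min of tunicamycin, where 0 and 17 of all 12731 genes were. With so few calls in all, this says little about the lists.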

How the data were processed

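mRNA-seq libraries of NIH3T3 cells were analysed from the per-library tables of 20207 genes. The genome build mm9 comes from the submitters' processing notes, and by the study's methods the DNAnexus platform was used with RefSeq genes, without a named aligner or counter. Per gene, the values deposited were estimated counts without normalization, of which 17.7% to 23.2% of values under 1000 were not whole. The RPKM are those of the authors, scaled to gene length and library size. A score (RPKM standardised within a library) and a signal (RPKM over its root mean square), also deposited by the authors, were not tested. The study's methods name 2 library kits without saying which library was made with which.

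Counts were rounded and each comparison of 3 against 3 libraries was fitted with edgeR 4.0.16 (R 4.3.3, TMM, quasi-likelihood test, Benjamini-Hochberg over 12731 genes with at least 1 read in all 18 libraries, called under an adjusted p of 0.05). The SE was derived from the fold change and its F statistic. CPM were scaled by TMM over all libraries. The fit was tested on simulated data. No replicates were identical or alike within sampling noise. Alternatives were DESeq2 1.42.0 size factors and Wald test, library totals, other filters on low counts, 1 fit of all 6 groups, a replicate block, an offset for transcript GC content (lowess, span 0.3, GENCODE transcripts of the same build, for 97.6% of tested genes) and leaving out each library, and, added after the data were seen, CPM per kilobase of transcript in place of RPKM for the order of members. Replicate numbers were taken to pair the libraries where the deviations of every same-numbered pair correlated above 0.1, which held only for 135 min of tunicamycin against control (0.335, 0.314 and 0.284), where the replicate block called 0 of the 12731 genes and the fit without it 17, none of them a member. Named genes are the 9 members, at most 4 called genes per pathway list and comparison with the largest change and no overlap, and the 3 genes most correlated with each of the 3 members of widest range (log2 of CPM plus 0.5, genes of at least 10 CPM). Members and lists were chosen with earlier results of these data known. Promoter windows are RefSeq sequences on GRCm38.p6.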

Additional observations from a re-analysis of the deposited data

Results flagged for a closer look

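Dusp1 at 45 min is singled out because its values under HS and under tunicamycin differed in a direct test. The log2 fold change of HS over tunicamycin was 2.54 (SE 0.278, edgeR quasi-likelihood test, adjusted p = 0.0455), with group means of 164 and 28.3 CPM, and all 3 HS libraries lay above and all 3 tunicamycin libraries below the 3 control libraries. The adjusted p ranged from 0.167 to 0.393 when a library other than HS 45 min replicate 3 was left out, and the log2 fold change stayed between 2.30 and 2.78 in all 6 such fits. The fits that lost the call of Dusp1 called 0 of all genes tested. The HS libraries also differed along the GC-related axis, and with the GC offset together with the replicate block the log2 fold change was 2.31 (adjusted p = 0.238).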

How the results depend on the processing

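Of the 18 member values called, none changed sign in any alternative. Each of the 90 values had several alternative fits. Sign and call were kept in 1169 of these fits, a call was gained in 63 and lost in 50. The sign changed in 64 fits, all of values that were called in neither fit. The falls of Dusp1, Dusp5, Dusp6 and Dusp10 at 405 min of tunicamycin, against control and against 135 min, were called in all 9 other settings and without any 1 library. The calls at 45 min and between 45 and 135 min of tunicamycin, and that of HS against tunicamycin at 45 min, depended on single libraries. Dusp2 at 3 to 27 reads is limited by depth, and the spread between libraries limits the rest.

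Members called differed as follows, with the number in the report in brackets. The DESeq2 Wald test called 2 (0) at 45 min of HS (451 genes in all, where edgeR called 0), 4 (2) at 45 min and 1 (0) at 135 min of tunicamycin, 4 (1) and 1 (0) for HS against tunicamycin at 45 and 135 min, 1 (0) between the HS times and 4 (2) between 45 and 135 min of tunicamycin. The number of all genes called moved too. In the same order it was 451 (0), 1843 (786), 665 (17), 1127 (26), 1256 (270), 403 (0) and 617 (37). The fit of all 6 groups called 2 (0) at 45 min and 1 (0) at 135 min of HS, 1 (0) at 135 min of tunicamycin, 4 (1) and 1 (0) for HS against tunicamycin at 45 and 135 min and 2 (0) between the HS times. Its calls over all genes, in this order, were 1345 (0), 3243 (941), 411 (17), 1270 (26), 1771 (270) and 905 (0). The GC offset called 1 (0) at 135 min of HS, 5 (2) at 45 min and 1 (0) at 135 min of tunicamycin, 2 (1) and 1 (0) for HS against tunicamycin at 45 and 135 min and 1 (0) between the HS times. Over all genes the offset called 2561 (941), 1894 (786), 273 (17), 451 (26), 1429 (270) and 85 (0). Library totals called 2 (1) and 1 (0) for HS against tunicamycin at 45 and 135 min and 1 (2) between 45 and 135 min of tunicamycin, and either other filter on low counts called 1 (0) for HS against tunicamycin at 135 min. All genes called were 116 (26), 484 (270) and 53 (37) with library totals, and 284 and 307 (270) with the filters. At 405 min against control the number stayed at 6 with the replicate block (with or without the GC offset) and by the Wald test, where Dusp7 (-0.83 with the block, edgeR adjusted p = 0.0127) took the place of Dusp2, and in the fit of all 6 groups, where Dusp7 (-0.77, edgeR adjusted p = 0.0403) took that of Dusp4. The cause of these differences was not tested.

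With the replicate block, 0 members were called at 45 min of tunicamycin, for HS against tunicamycin at 45 min and between 45 and 135 min of tunicamycin, and the last 2 were also 0 with the GC offset and the replicate block together. The block called 21, 0 and 0 of all genes there, and with the GC offset as well it called 0 in the last 2. In these 3 comparisons the libraries share only a number, and the mean correlations of same-numbered deviations were -0.169, -0.596 and -0.326. DESeq2 size factors changed no call.

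Leaving out 1 library gave 0 to 4 members called at 45 min and 0 to 1 at 135 min of HS against control (4 without HS 45 min replicate 3, 1 without HS 135 min replicate 1), 0 to 4 at 45 min of tunicamycin (4 without control replicate 1), 0 to 5 and 0 to 1 for HS against tunicamycin at 45 and 135 min (5 without HS 45 min replicate 3, 1 without HS 135 min replicate 1) and 0 to 3 between 45 and 135 min of tunicamycin (3 without Tun 135 min replicate 1). It gave 5 to 7 at 405 min (4067 to 7897 genes called in all) and 5 to 9 between 135 and 405 min (3547 to 8126 genes). The highest member counts at 45 and 135 min of HS came with 5786 and 2467 of all 12731 genes called. That at 45 min of tunicamycin came with 2499 genes. Those of HS against tunicamycin at 45 and 135 min came with 7087 and 364 genes, and that between 45 and 135 min of tunicamycin with 218. Fits with 0 members called at 45 min of tunicamycin came with 58 to 102 genes. Such fits came with 0 genes for HS against tunicamycin at 45 min and with 0 or 1 between 45 and 135 min of tunicamycin.

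These log2 fold changes changed sign. With library totals, at 45 min of HS Dusp2 was -0.06, Dusp8 -0.02 and Dusp16 -0.11, at 135 min of HS Dusp16 was -0.15, and for HS against tunicamycin Dusp8 was -0.19 at 45 min and -0.10 at 135 min and Dusp7 -0.08 at 135 min. With the GC offset, and in brackets with the replicate block as well, at 45 min of HS Dusp2 was -0.35 (-0.39), Dusp6 0.13 (0.08) and Dusp8 -0.30 (-0.21), at 135 min of HS Dusp7 was -0.09 (-0.08), at 135 min of tunicamycin Dusp1 was -0.10 (-0.10), Dusp2 -0.18 (-0.18) and Dusp7 -0.08 (-0.08), and for HS against tunicamycin Dusp8 was -0.37 (-0.37) at 45 min and -0.06 (-0.06) at 135 min and Dusp7 -0.01 (-0.01) at 135 min. Dusp4 at 45 min of tunicamycin was -0.00 with both, and Dusp1 at 135 min of tunicamycin -0.00 in the fit of all 6 groups.

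On leaving out 1 library, at 45 min of HS Dusp6 ran from -0.23 to 0.05, Dusp8 from -0.17 to 0.79 and Dusp16 from -0.00 to 0.10. At 135 min of HS Dusp1 ran from -0.30 to 0.11, Dusp2 from -0.30 to 0.24, Dusp8 from -0.45 to 0.47 and Dusp16 from -0.07 to 0.10. With tunicamycin, Dusp4 ran from -0.07 to 0.12 and Dusp8 from -0.23 to 0.68 at 45 min, Dusp1 from -0.13 to 0.12, Dusp2 from -0.07 to 0.22, Dusp7 from -0.04 to 0.24 and Dusp8 from -0.53 to 0.39 at 135 min, and Dusp8 from -0.04 to 0.90 at 405 min. For HS against tunicamycin, Dusp8 ran from -0.21 to 0.36 at 45 min, and Dusp1 from -0.32 to 0.09, Dusp2 from -0.34 to 0.19, Dusp7 from -0.03 to 0.20 and Dusp8 from -0.07 to 0.24 at 135 min. Between the HS times Dusp2 ran from -0.44 to 0.10.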

Other observations

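Dusp9, another cytoplasmic phosphatase selective for ERK that is outside the 9 members, was looked at after its values were seen. It averaged 33.7 ± 2.27 CPM (SD, n = 3) in the control, 37.2 ± 8.49 CPM at 45 min and 19.4 ± 2.22 CPM at 135 min of HS, and 23.3 ± 1.12, 38.6 ± 8.95 and 21.6 ± 1.03 CPM at 45, 135 and 405 min of tunicamycin. The order of its tunicamycin means, highest at 135 min, then 45 min, then 405 min, was also that of Dusp1, Dusp4, Dusp5, Dusp6, Dusp7 and Dusp10. Among these members, Dusp4 and Dusp10 were not below control at 45 min of tunicamycin (log2 fold changes 0.03 and 0.11, with overlap).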
